A study of Arabidopsis thaliana with 2 samples.

Results

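The beta carbonic anhydrases of Arabidopsis thaliana were examined on membrane-bound polysomes (MBPs), the polysomes that sediment with the microsomal membranes. The family was taken by gene name: CA1 (AT3G01500), CA2 (AT5G14740), CA3 (AT1G23730), CA4 (AT1G70410), CA5 (AT4G33580) and CA6 (AT1G58180), 6 of the 25224 genes and 18 of the 33114 isoforms in the exon table. It was chosen by readout as well, since the high exon values of CA1 in both libraries were known when the family was picked, so those levels are given as a description. Both libraries came from wild-type (WT) seedlings that were 13 days old and grown on half-strength Murashige and Skoog plates in long days. MBP ribo-seq sequenced the short RNA fragments that ribosomes shield from RNase I, and MBP mRNA-seq sequenced the RNA of the same fraction. Whole seedlings were used, so cell types are mixed, and fewer cells of a type cannot be told apart from less RNA per cell. Each assay had a single library, so the differences below have no replicate check and no p-value. All intervals are 95% intervals that cover counting error only, because PCR reads are not independent molecules.

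Beta carbonic anhydrases are zinc enzymes that interconvert CO2 and bicarbonate. CA1 is the abundant enzyme of the chloroplast stroma and CA5 is also placed in the chloroplast. CA2 and CA3 are cytosolic, CA4 is found at the plasma membrane, and CA6 is mitochondrial. CA1 and CA4 are known for their part in the closing of stomata at high CO2. The proteins are made from nuclear genes on cytosolic ribosomes, and those bound for organelles carry an N-terminal targeting sequence.

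Several members have isoforms that differ at the start or at the end of the coding sequence, and the values below turn on these positions. The first 30 coding bases are shown for the long and the short forms of CA1, CA2 and CA4 and for CA3, with the start codon in capitals (RefSeq, TAIR10.1, coding strand, 5′ to 3′). The lines for the short forms show a start codon that lies inside the long form, in the same frame.
CA1.2, long, chr3:197844-197873, minus strand: ATGtcgaccgctcctctctccggcttcttt
CA1.1, short, chr3:196687-196716, minus strand: ATGggaaccgaagcatacgacgaggctatt
CA2.1, long, chr5:4758257-4758286, plus strand: ATGgtccccttttggactacagtttctcga
CA2.2, short, chr5:4760536-4760565, plus strand: ATGggaaacgaatcatatgaagacgccatc
CA4.2, long, chr1:26537428-26537457, minus strand: ATGgctcctgcattcggaaaatgtttcatg
CA4.1, short, chr1:26536476-26536505, minus strand: ATGgcaacggaatcgtacgaagccgccatt
CA3.1, chr1:8395965-8395994, plus strand: ATGtcgacagagtcgtacgaagacgccatt

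The inner starts of CA1, CA2 and CA4 resembled each other and the only start of CA3. Between 20 and 25 of the 30 bases were identical in the 6 pairs among these 4 windows. In the 39 other pairs of start windows over the 6 genes, between 6 and 16 bases were identical. In CA1, CA2 and CA4 the long forms thus add a stretch in front of a start that these 3 genes and CA3 share, and CA3 is annotated without such a stretch.

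The last 30 coding bases, with the stop codon in capitals, are shown for the isoforms of CA1 and CA2 that end differently.
CA1.2, later stop, chr3:194853-194882, minus strand: gtggctaccatactacattggaagctgTAG
CA1.3, earlier stop, chr3:195173-195202, minus strand: tttggcctctccgaaactagctctgtaTGA
CA2.1, later stop, chr5:4762353-4762382, plus strand: tttggaatttcccccgttcattctataTGA
CA2.5, earlier stop, chr5:4762286-4762315, plus strand: aacacttgctttgaagggaggctactaTGA
The end of CA1.3 resembled that of CA2.1, with 18 of 30 bases identical, whereas the end of CA1.2 shared 7 bases with CA2.1.

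The ribo-seq library held 38438720 reads and the mRNA-seq library 66958226 reads, so 1 read was worth 0.0260 RPM (RPM being the deposited read count scaled to library size) in ribo-seq against 0.0149 RPM in mRNA-seq. A value of 0 allows up to 3 reads, which is 0.0780 RPM in ribo-seq against 0.0448 RPM in mRNA-seq. Marker genes of shoot, root and guard cells were read. RBCS1A, a Rubisco small subunit gene of green tissue, had 9535 RPM in ribo-seq against 13066 RPM in mRNA-seq, and the light-harvesting gene LHCB1.3 had 267.3 RPM in ribo-seq against 1212 RPM in mRNA-seq. BGLU23, a root beta-glucosidase of ER bodies, had 171.4 RPM in ribo-seq against 219.8 RPM in mRNA-seq, whereas the second root marker, PRP3, was low, with 1.301 RPM in ribo-seq against 0.329 RPM in mRNA-seq. The guard cell regulator FAMA had 14.4 RPM in ribo-seq against 20.9 RPM in mRNA-seq. The other guard cell markers were lower. MYB60 had 4.24 RPM in ribo-seq against 8.83 RPM in mRNA-seq, and SLAC1 had 1.25 RPM in ribo-seq against 5.02 RPM in mRNA-seq.

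CA1 had the highest level of the family. Isoform CA1.2, which codes for 347 amino acids in 10 exons, had 5248 RPM in ribo-seq against 5526 RPM in mRNA-seq over its exons (201737 ribo-seq and 370025 mRNA-seq reads). The shorter CA1.1 had 4481 RPM in ribo-seq against 4495 RPM in mRNA-seq, and CA1.3 had 5246 RPM in ribo-seq against 5508 RPM in mRNA-seq. The exon table behaves as coding sequence, where 1 read is counted in all isoforms it falls on, so these 3 values share most of their reads. Footprints and mRNA reads of CA1 were thus at nearly the same RPM in each isoform.

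CA2, the cytosolic enzyme most like CA1, had 1914 RPM in ribo-seq against 2817 RPM in mRNA-seq for CA2.1 (73575 ribo-seq and 188640 mRNA-seq reads). The other 4 isoforms lay between 1795 and 1886 RPM in ribo-seq and between 2523 and 2770 RPM in mRNA-seq. Every isoform of CA2 was lower in ribo-seq than in mRNA-seq, which did not hold to the same degree for CA1.

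CA4, the plasma membrane enzyme of the stomatal CO2 response, had 182.6 RPM in ribo-seq against 238.0 RPM in mRNA-seq for CA4.2 (7020 ribo-seq and 15934 mRNA-seq reads). CA4.1 and CA4.3 had the same exon values as each other, 174.2 RPM in ribo-seq against 223.9 RPM in mRNA-seq. These forms lack the start of CA4.2 and are identical in coding sequence.

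The organelle enzymes CA5 and CA6 were low. CA5.2 had 32.0 RPM in ribo-seq against 48.4 RPM in mRNA-seq (1230 ribo-seq and 3239 mRNA-seq reads), and CA5.1 differed from it by a single mRNA read. CA6.2 and CA6.4 each had 17.7 RPM in ribo-seq against 43.4 RPM in mRNA-seq (681 ribo-seq and 2903 mRNA-seq reads), CA6.1 had 15.4 RPM in ribo-seq against 37.0 RPM in mRNA-seq, and CA6.3 had 14.0 RPM in ribo-seq against 34.9 RPM in mRNA-seq. Relative to its mRNA-seq value, CA6 had the fewest footprints of the family, with a ribo-seq value at 40.9% of that in mRNA-seq for CA6.2.

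CA3, with a single isoform, was close to the filter on low values that every member passed, a mean exon value of 1 RPM. It had 2.76 RPM in ribo-seq (interval 2.26 to 3.34, 106 reads), while mRNA-seq gave 4.05 RPM (3.58 to 4.56, 271 reads). Reads of CA3 were found in both libraries, and its 2 intervals did not overlap. The median gene was also lower in ribo-seq than in mRNA-seq, as given below.

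**Figure D1:**
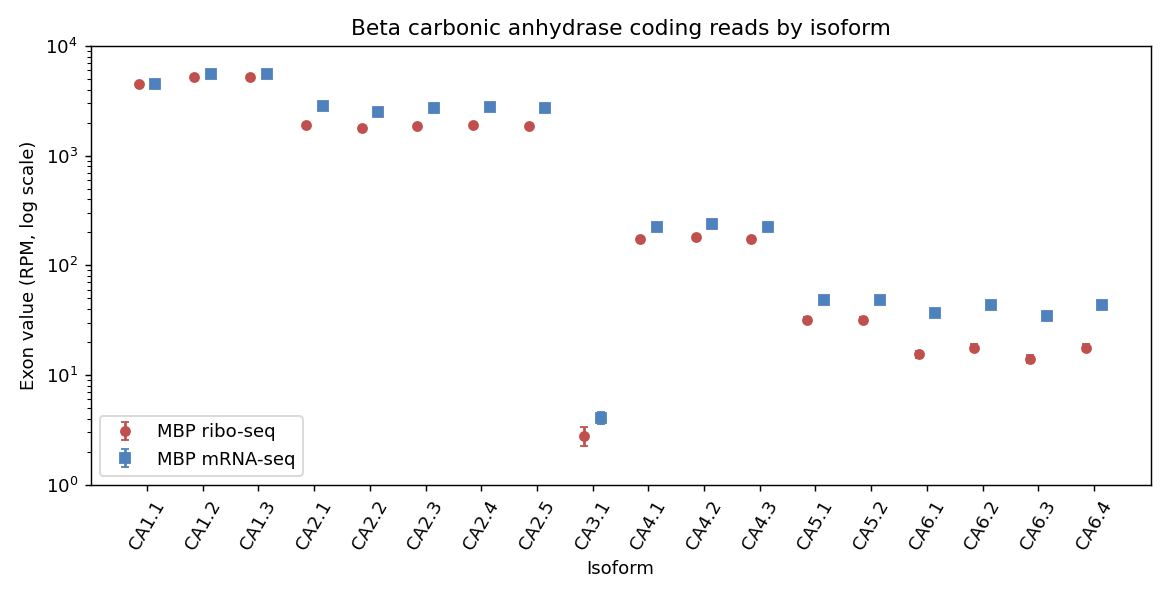
Exon value of each of the 18 beta carbonic anhydrase isoforms in RPM (log scale), with MBP ribo-seq as circles and MBP mRNA-seq as squares. Bars are 95% Poisson counting intervals of the single library and are smaller than the symbols for most isoforms. CA1.1, the lowest CA1 isoform, has 4481 RPM in ribo-seq against 4495 RPM in mRNA-seq, and CA3 has 2.76 RPM in ribo-seq against 4.05 RPM in mRNA-seq.

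Genes were then compared per length. Per kilobase of coding sequence, CA1 had 5027 RPM in ribo-seq against 5293 RPM in mRNA-seq, and CA2 had 1922 RPM in ribo-seq against 2829 RPM in mRNA-seq. CA4 followed with 216.6 RPM per kilobase in ribo-seq against 282.3 in mRNA-seq. CA5 had 35.2 RPM per kilobase in ribo-seq against 53.2 in mRNA-seq, CA6 had 20.3 in ribo-seq against 49.7 in mRNA-seq, and CA3 had 3.55 in ribo-seq against 5.21 in mRNA-seq. The order CA1, CA2, CA4, CA5, CA6, CA3 was the same in both libraries. CA5 and CA6 were close to each other in mRNA-seq, whereas CA6 lay further below CA5 in ribo-seq. With 1 library per assay there is no spread between samples to set beside this order. Per kilobase, CA1 exceeded CA2 2.62-fold in ribo-seq and 1.87-fold in mRNA-seq, and it exceeded CA3 1416-fold in ribo-seq and 1016-fold in mRNA-seq. Of all coding reads of the family, CA1 took 70.9% in ribo-seq and 63.7% in mRNA-seq, CA2 took 25.9% in ribo-seq and 32.5% in mRNA-seq, and the 4 other genes took the small rest.

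To set footprints against mRNA, the exon value in ribo-seq was divided by that in mRNA-seq and put on a log2 scale, with 1 RPM added to each, for 1 isoform per gene, the one with the largest mean exon value. This ratio depends on the scaling of 2 unlike libraries, so it was read against the median of all 16879 genes with a mean of at least 1 RPM. That median was -0.99, with quartiles at -1.53 and -0.52.

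CA1 had a ratio of -0.07, which was 0.91 above the median of all genes and higher than that of 92.5% of them. CA4 at -0.38, CA3 at -0.43, CA2 at -0.56 and CA5 at -0.58 followed, at 0.61, 0.56, 0.43 and 0.41 above the median. CA6 was the exception, with a ratio of -1.24, or -0.26 relative to the median, and higher than that of 37.1% of genes. The median of the 6 members was -0.49, or 0.50 above that of all genes. So 5 of 6 members carried more footprints per mRNA read than the median gene, by less than 2-fold in each case.

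Counting error was small for these ratios except for CA3. Without the added RPM, the log2 ratio of CA3 was -0.55 (exact conditional interval -0.89 to -0.22), and that of CA1 was -0.07 (-0.08 to -0.07). The interval of CA3 overlapped those of CA2, CA4 and CA5, and CA2 and CA5 overlapped each other, so their order is not firm. The ratios of CA1 and CA6 lay outside the intervals of all other members.

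None of the 6 members lay more than 2-fold above the median, against 5.59% of all genes, and none lay more than 2-fold below it, against 11.8% of all genes. A binomial test of the recovered reads against the split of the median gene, with Benjamini-Hochberg adjustment over all genes, put 5 of 6 members higher, against 39.6% of all genes, and CA6 lower, against 39.7% of all genes. That test compares these 2 libraries and not a biological difference, and at this depth it calls most genes. CA1 was near the 2-fold limit and passed it with a pseudocount of 0.1 RPM, at 1.07 above the median. With no filter on low values the median gene moved, and CA2 and CA5 were then 0.03 and 0.01 above it.

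**Figure D2:**
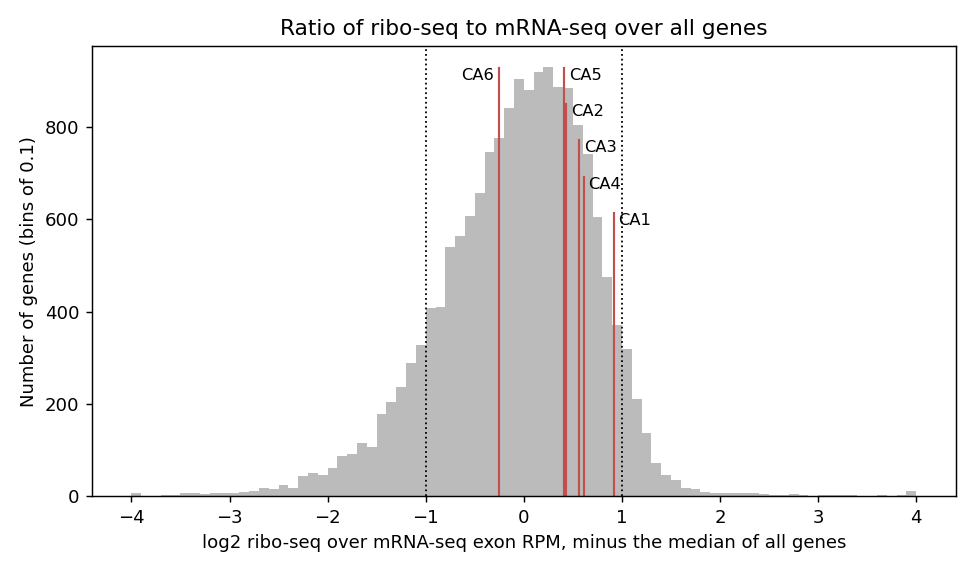
Number of genes by log2 ratio (exon RPM in ribo-seq over mRNA-seq), minus the median of all 16879 genes, in bins of 0.1 (values beyond the axis are put in the outermost bins). Lines mark the 6 beta carbonic anhydrases and dotted lines mark 2-fold; CA1 lies at 0.91 and CA6 at -0.26, and no member is past 2-fold.

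The start of the coding sequence was examined next, in the stretch that the long form codes for and the short form does not. The reads of this stretch are the exon value of the long form minus that of the short form. In CA1 the stretch holds 231 bases (77 codons), in the segments chr3:197652-197873 and chr3:196717-196725. It carried 766.8 RPM in ribo-seq against 1031 RPM in mRNA-seq (29475 ribo-seq and 69028 mRNA-seq reads). Reads per base were 60.2% (59.5 to 61.0) of those over the shared coding part in ribo-seq and 80.7% (80.05 to 81.4) in mRNA-seq. The part that only the long form of CA1 codes for was therefore covered by footprints, at a lower density than the rest of the coding sequence.

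In CA2 the stretch of 216 bases (72 codons) carried 118.7 RPM in ribo-seq against 294.7 RPM in mRNA-seq. The density of the CA2 stretch was 23.9% (23.2 to 24.6) of that over the shared part in ribo-seq and 42.2% (41.6 to 42.8) in mRNA-seq. The long start of CA2 was thus thinner than that of CA1 in both libraries. The intervals do not cover how reads at exon edges are assigned. CA2.3, which lacks 7 coding bases of CA2.1, had 56.1 RPM fewer in ribo-seq and 97.8 RPM fewer in mRNA-seq. In CA4 the stretch of 66 bases (22 codons) carried 8.40 RPM in ribo-seq against 14.0 RPM in mRNA-seq, with a density of 56.8% (50.8 to 63.5) in ribo-seq and 73.7% (69.0 to 78.7) in mRNA-seq.

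In all 3 genes the relative density of the stretch was lower in ribo-seq than in mRNA-seq. On the log2 scale, ribo-seq over mRNA-seq was -0.43 in the CA1 stretch, against -0.00 over the shared part, a difference of -0.42 (-0.44 to -0.40). The difference was -0.82 (-0.87 to -0.77) in CA2 and -0.38 (-0.56 to -0.19) in CA4. CA6 did not show this. Its stretch of 153 bases (51 codons) had a density of 124% (103 to 149) of the shared part in ribo-seq and 114% (104 to 125) in mRNA-seq, and the difference between the log2 ratios was 0.12 (-0.18 to 0.41). Reads are assigned whole, so the density of a short stretch depends on how its length is counted. Length was then counted as the positions at which a 28-base read fits inside 1 exon. The CA4 values became 69.4% in ribo-seq and 90.1% in mRNA-seq. This length scales both libraries by the same factor, so it could not change which library was lower. The read length in mRNA-seq is not given in the sources used here.

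**Figure D3:**
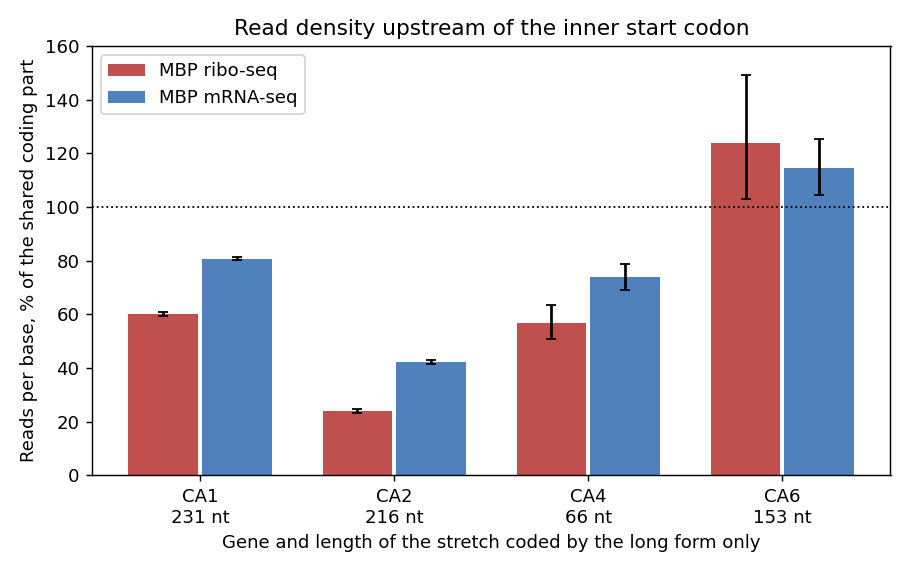
Reads per base in the stretch coded only by the long form, as a percent of the reads per base over the coding part shared with the short form, for MBP ribo-seq (left bar) and MBP mRNA-seq (right bar). Error bars are 95% counting intervals and the dotted line marks equal density; ribo-seq is below mRNA-seq in CA1 (60.2% and 80.7%), CA2 (23.9% and 42.2%) and CA4, and not in CA6.

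The 5′ UTR values of the short forms were compared with those of the long forms. The 5′ UTR of CA1.1 had 658.8 RPM in ribo-seq against 1235 RPM in mRNA-seq, whereas the 5′ UTR of CA1.2 and CA1.3 had 19.5 RPM in ribo-seq against 248.0 RPM in mRNA-seq. The 5′ UTR of CA2.2 had 50.9 RPM in ribo-seq against 238.1 RPM in mRNA-seq, and that of the other CA2 isoforms had 0.026 RPM in ribo-seq (1 read) against 0.403 RPM in mRNA-seq (27 reads). The 5′ UTR of CA6.3 had 4.06 RPM in ribo-seq against 10.2 RPM in mRNA-seq, and that of the other CA6 isoforms had 0.442 RPM in ribo-seq against 1.21 RPM in mRNA-seq. Footprints assigned to the leaders of CA1, CA2 and CA6 thus depended on the isoform whose annotation was used. Bases that code in the long form can be leader in the short form. In ribo-seq the short leader exceeded the long one by 639.3 RPM in CA1, 50.9 RPM in CA2 and 3.62 RPM in CA6. The long-form coding stretch carried 766.8, 118.7 and 3.69 RPM. How many reads these values share was not tested. CA4 differed: the leader of the long form CA4.2 carried 2.03 RPM in ribo-seq against 21.5 RPM in mRNA-seq, and the short forms had no more, with 1.87 RPM in ribo-seq against 4.20 RPM in mRNA-seq for CA4.1 and 1.90 RPM in ribo-seq against 5.71 RPM in mRNA-seq for CA4.3.

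CA6 has a further choice inside the coding sequence, a stretch of 102 bases at chr1:21538030-21538131 that is coding in CA6.2 and intron in CA6.1. The stretch carried 2.32 RPM in ribo-seq against 6.33 RPM in mRNA-seq (89 ribo-seq and 424 mRNA-seq reads). Reads per base were 114% (90.9 to 142) of those in the rest of the coding sequence in ribo-seq and 129% (117 to 143) in mRNA-seq. Counted by 28-base positions the same densities were 60.6% in ribo-seq and 69.0% in mRNA-seq. Both libraries thus covered the optional intron, and whether more or less densely than its surroundings depended on how length was counted.

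At the end of the coding sequence, the parts behind the earlier stops of CA1 and CA2 are unlike. Only 39 coding bases are particular to CA1.2, whereas the part in CA2 is coding sequence of CA2.1. The ends that resemble each other are those of CA1.3 and CA2.1. Behind both, footprints were few, at 2.06% and 0.271% of the mRNA-seq value. CA1.3 stops earlier than CA1.2, and the part behind its stop lies in its 3′ UTR. This part, the 3′ UTR value of CA1.3 minus that of CA1.2, had 13.9 RPM in ribo-seq against 675.5 RPM in mRNA-seq (536 ribo-seq and 45233 mRNA-seq reads). The ribo-seq value was 2.06% of the mRNA-seq value there, against 94.97% over the coding exons of CA1.2. mRNA reads therefore ran on behind the stop of CA1.3 and footprints nearly ended. In the exon table CA1.2, with 39 coding bases of its own, exceeded CA1.3, with 6, by 2.24 RPM in ribo-seq, against 18.4 RPM in mRNA-seq.

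CA2.5 likewise stops earlier than CA2.1, with 67 bases that code only in CA2.1. There the part behind the earlier stop had 67.9 RPM in ribo-seq against 93.9 RPM in mRNA-seq (2611 ribo-seq and 6284 mRNA-seq reads). The ribo-seq value was 72.4% of the mRNA-seq value, close to the 67.9% over the coding exons of CA2.1. Relative to mRNA reads, footprints behind the stop of CA2.5 were thus at about the level of the CA2.1 coding exons. Reads per base were not compared there. The stops of CA2.5 and CA2.1 lie in different frames, and this part is coding sequence of CA2.1. As the next values show, footprints were few behind the stop of CA2.1. The isoforms CA2.3 and CA2.4 differ from CA2.1 by 7 and 3 coding bases, yet had 56.1 and 27.6 RPM fewer in ribo-seq and 97.8 and 47.5 RPM fewer in mRNA-seq. Small shifts of an exon edge thus went with exon values that differed by far more than the bases involved. The paper's methods set a minimum overlap between a read and a feature, and the part of this rule in these differences was not tested.

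Behind the last stop codon footprints were almost absent. The 3′ UTR of CA2.1 had 1.43 RPM in ribo-seq against 528.1 RPM in mRNA-seq, so that ribo-seq was 0.271% (0.204 to 0.353) of mRNA-seq. For CA1.2 these values were 0.416 RPM in ribo-seq against 55.4 RPM in mRNA-seq, or 0.751% (0.429 to 1.22). CA4.2 had 0.052 RPM (2 reads) in ribo-seq against 34.3 RPM in mRNA-seq, and CA5.2 had 0.078 RPM (3 reads) in ribo-seq against 9.29 RPM in mRNA-seq. CA6.2 and CA3 had 0 footprints in the 3′ UTR, with 3.72 RPM and 0.836 RPM in mRNA-seq, and a count of 0 allows up to 3 reads. The 3′ UTR of every member thus had mRNA reads assigned to it, with few or no footprints.

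Leaders differed more among the members. In CA1.2 the 5′ UTR value in ribo-seq was 7.86% (7.29 to 8.46) of that in mRNA-seq, and in CA4.2 it was 9.43% (7.41 to 11.8), far under the 94.97% and 76.7% over their coding exons. In CA5.2 it was 39.9% (28.1 to 55.6), against 66.2% (61.9 to 70.7) over the exons. In CA6.2 it was 36.6% (20.3 to 62.2), against 40.9% (37.5 to 44.4) over the exons. The leader of CA6.2 was thus not distinguishable from its coding exons at this depth, on 17 footprints, while the leaders of CA1, CA4 and CA5 were lower. CA3 and CA2.1 had 2 footprints and 1 footprint in the 5′ UTR, too few for a comparison. RefSeq places the 5′ end of CA1 over 343 bases of AT3G01510 on the same strand, and that of CA5 over 37 bases of AT4G33565 on the same strand. On the opposite strand, AT1G23740 overlaps the 3′ end of CA3 over 273 bases, and AT4G33585 that of CA5 over 90 bases. How the strand of reads was handled is not given in the sources used here. No coding base of a member is overlapped by another gene. The part of the neighbours in the leader and 3′ UTR values was not tested.

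Of all reads over the 3 features of the isoforms used for the 6 members, 0.339% (Wilson interval 0.318 to 0.361) lay in UTRs in ribo-seq. In mRNA-seq this was 9.45% (9.38 to 9.52). The medians of the 14036 genes with all 3 features were 0.778% in ribo-seq and 15.4% in mRNA-seq. In CA1, 0.370% of the ribo-seq reads lay in the 5′ UTR and 0.0079% in the 3′ UTR, against 4.25% and 0.9505% of the mRNA-seq reads. Among the isoforms used, CA1.2 had the smallest UTR part in mRNA-seq. This depends on the isoform: the 3′ UTR of CA1.3 had 730.9 RPM in mRNA-seq, against 55.4 RPM for CA1.2. The UTR share of the 6 members depended on it too. In mRNA-seq that share was 19.7% with the isoform numbered 1 and 16.0% with the sum over isoforms. In ribo-seq it was 9.12% and 3.31%. The family was thus not below the medians of all genes under each choice of isoform. In CA2, 0.0747% of the ribo-seq reads and 15.8% of the mRNA-seq reads lay in the 3′ UTR. Coding exons held 96.3% or more of the ribo-seq reads of each member.

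**Figure D4:**
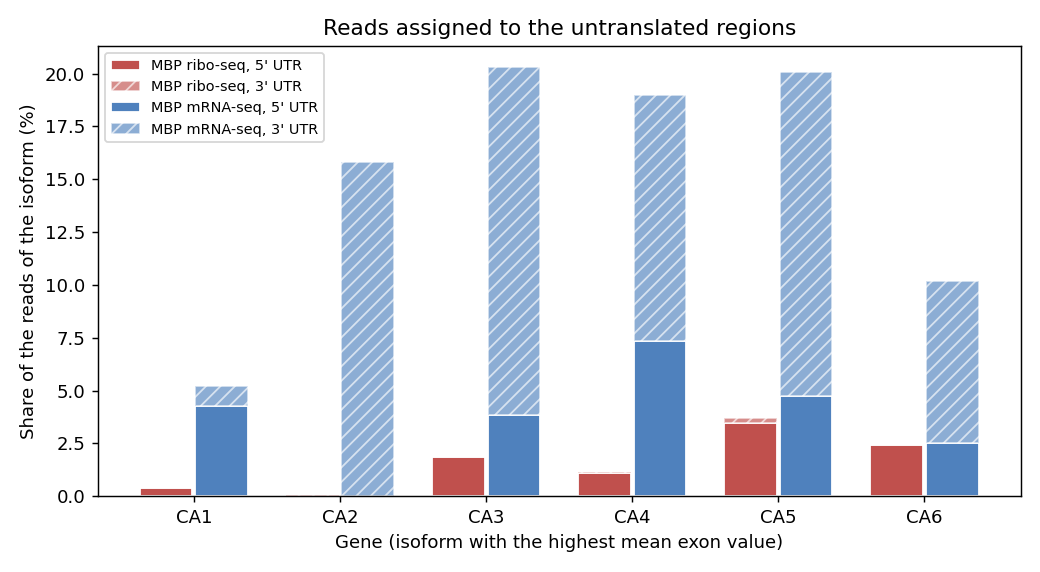
Share of the reads of each gene (isoform of largest mean exon value) that were assigned to the 5′ UTR (plain) and the 3′ UTR (hatched), with MBP ribo-seq as the left bar and MBP mRNA-seq as the right bar. The 3′ UTR part is at 0.235% or less in ribo-seq in all 6 genes, and the 5′ UTR part of CA6 is about the same in both libraries (2.44% and 2.51%).

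Because CA1 and CA2 are close relatives, the sequence they share was counted. Their proteins are identical at 72.1% of aligned residues, and CA3 and CA4 at 75.2%. All other pairs lay between 32.6% and 60.2%. Of the 28-base windows of the CA1.2 coding sequence, 23 of 1017 occurred unchanged in CA2.1, or 2.26%, and 258 did so with up to 2 mismatches, or 25.4%. The longest identical run of CA1 and CA2 was 42 bases. No other pair shared an unchanged window, and CA3 and CA4 shared 26 with up to 2 mismatches. Reads of CA1 and CA2 could thus be split or lost over a small part of the coding sequence. The study's methods describe, for mRNA-seq in general, leaving out reads with more than 1 map position, and aligning both libraries here with TopHat at default settings. Whether such reads were left out of the deposited values is not given in the sources used here. Between 22.3% and 24.9% of the windows of each member crossed an exon junction.

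The other carbonic anhydrase families were described by the same values. Alpha carbonic anhydrases are unrelated in fold and carry signal peptides for the secretory pathway. Of 8 listed, 2 had a mean of at least 1 RPM. ACA1, which reaches the chloroplast through the secretory pathway, had 31.2 RPM in ribo-seq against 33.2 RPM in mRNA-seq, a ratio 0.90 above the median of all genes, and ACA2 had 2.39 RPM in ribo-seq against 1.78 RPM in mRNA-seq, 1.28 above it. The remaining 6 had 0 to 3 reads in ribo-seq and 0 to 7 in mRNA-seq. Gamma carbonic anhydrases are subunits of mitochondrial complex I. All 5 lay above the median, none by more than 2-fold, with a list median of 0.53 above it. GAMMA CA2 had 71.2 RPM in ribo-seq against 82.4 RPM in mRNA-seq (0.78 above), GAMMA CA3 had 42.4 RPM in ribo-seq against 48.1 RPM in mRNA-seq (0.81 above), and GAMMA CA1 had 18.1 RPM in ribo-seq against 25.3 RPM in mRNA-seq (0.53 above). The related GAMMA CAL1 had 19.5 RPM in ribo-seq against 36.3 RPM in mRNA-seq and GAMMA CAL2 15.7 RPM in ribo-seq against 29.9 RPM in mRNA-seq, at 0.12 and 0.10 above the median. The mitochondrial beta enzyme CA6 thus lay below the median where the mitochondrial gamma subunits lay above it; this difference was not tested.

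Genes of the guard cell CO2 response, in which CA1 and CA4 act, were spread on both sides of the median of all genes. Of 10 listed, 5 lay above that median, none was more than 2-fold away from it, and the list median was 0.01 above it. PIP2;1, an aquaporin reported to interact with CA4, had 131.7 RPM in ribo-seq against 233.2 RPM in mRNA-seq (0.17 relative to the median). The kinase HT1 had 0.780 RPM in ribo-seq against 5.69 RPM in mRNA-seq (-0.92), the Raf-like kinase CBC1 had 7.60 RPM in ribo-seq against 25.6 RPM in mRNA-seq (-0.64), and its relative CBC2 had 26.7 RPM in ribo-seq against 52.6 RPM in mRNA-seq (0.03). The anion channel SLAC1 had 1.25 RPM in ribo-seq against 5.02 RPM in mRNA-seq (-0.43). OST1, the kinase of abscisic acid signalling, had 15.1 RPM in ribo-seq against 25.2 RPM in mRNA-seq (0.29). The MAP kinase MPK12 had 5.20 RPM in ribo-seq against 10.4 RPM in mRNA-seq (0.11), and MPK4 had 21.3 RPM in ribo-seq against 48.1 RPM in mRNA-seq (-0.15). The transporter RHC1 had 0.780 RPM in ribo-seq against 1.93 RPM in mRNA-seq (0.27), and the receptor-like kinase GHR1 had 8.92 RPM in ribo-seq against 19.0 RPM in mRNA-seq (-0.02).

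The genes most like each member were found by Euclidean distance in log2 (exon RPM + 1) over the 2 libraries, which uses 2 values per gene and no length. CA1 was nearest to CNGC10 (4947 RPM in ribo-seq against 6705 RPM in mRNA-seq, distance 0.29), RBCS1B (4283 RPM in ribo-seq against 4368 RPM in mRNA-seq, 0.45) and RBCS2B (4095 RPM in ribo-seq against 4582 RPM in mRNA-seq, 0.45). The RBCS genes encode the small subunit of Rubisco. CNGC10 encodes an ion channel and lies at chr1:132270-135924, numbers that overlap 131149 to 133958 of the plastid 23S rRNA gene. Whether its reads came from CNGC10 was not tested. CA2 was nearest to the myrosinase gene TGG1 (1821 RPM in ribo-seq against 2974 RPM in mRNA-seq, distance 0.11), then to AT3G60750 (0.30) and PGK1, a phosphoglycerate kinase gene (0.31). CA4 was nearest to the metallothionein gene MT2A (185.0 RPM in ribo-seq against 238.7 RPM in mRNA-seq, 0.02), CA5 to AT3G51140 (31.9 RPM in ribo-seq against 48.2 RPM in mRNA-seq, 0.01), CA6 to AT1G07990 (17.8 RPM in ribo-seq against 42.7 RPM in mRNA-seq, 0.02) and CA3 to NF-YC2 (2.73 RPM in ribo-seq against 4.05 RPM in mRNA-seq, 0.01). The remaining neighbours were AT3G48420 and PRPS20 for CA4, AT5G48220 and scpl35 for CA5, CKL13 and AT4G29750 for CA6, and AT1G14200 and EMB2752 for CA3.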

How the data were processed

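MBPs were isolated by the authors from WT seedlings, and 1 ribo-seq and 1 mRNA-seq library were made. Per the labels, reads were aligned with TopHat2 2.0 to TAIR10 and assigned to features with bedtools 2.23.0. The authors deposited RPM values for the 5′ UTR, exons and 3′ UTR of each isoform in 3 tables. The deposited mRNA-seq exon column sums to 1348200 and was treated as a signal, since a read counts for every isoform. The paper describes polyA selection for RNA-seq in general, and the ribo-seq protocol names no such step.

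Low values were whole multiples of 1 step, which gave the reads behind each value (99.998% of values above 0 in each library were whole within 0.05 reads or the last printed digit). For each gene the isoform of largest mean exon value was used, with a pseudocount of 1 RPM, which understates differences of low genes, and a mean of at least 1 RPM. Coding lengths, coordinates and sequences came from RefSeq TAIR10.1, whose UTR lengths were not used. Poisson, Wilson and exact conditional 95% intervals were computed with Python 3.11.15, numpy 2.4.6, pandas 2.3.3 and scipy 1.17.1, alignments with Biopython 1.88 and figures with matplotlib 3.10.9. The ratio was run on simulated reads with planted changes, which checks the code only, since isoform and exon edge differences were not simulated.

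Members and lists were chosen with earlier results of these data known. Named were all 6 members, the alpha and gamma carbonic anhydrases and guard cell CO2 response genes of at least 1 RPM, and the 3 genes nearest to each member. Alternatives covered the pseudocount, filter, scaling, isoform and UTR values. Amino acid sequences are not printed.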

Additional observations from a re-analysis of the deposited data

How the results depend on the processing

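CA1 to CA5 lay above and CA6 below the median of all genes under every alternative that could be run (9 each, and 8 for CA3, which a mean of at least 10 RPM leaves out). CA1 ranged between 0.52 and 1.09 above the median, CA2 between 0.03 and 0.61, CA3 between 0.17 and 0.61, CA4 between 0.21 and 0.78, and CA5 between 0.01 and 0.57, while CA6 ranged between -0.65 and -0.13. The median of the members, 0.50 above that of all genes, became 0.60 with a pseudocount of 0.1 RPM, 0.20 with one of 5 RPM and 0.10 with no filter on low values, where the median gene itself changes. CA1 passed 2-fold, so that 1 member did in place of 0, with a pseudocount of 0.1 RPM, with libraries scaled by their summed values over the isoforms used, and with UTR and exon values summed. Its recovered-read ratio without a pseudocount was also past 2-fold, at 1.09 above the median. The binomial test put 5 members above and 1 below. The UTR share of member reads became 9.12% in ribo-seq and 19.7% in mRNA-seq with the isoform numbered 1. It became 3.31% and 16.0% with the sum over isoforms. The 5′ UTR of CA1.1 had 658.8 RPM in ribo-seq, against 19.5 RPM for CA1.2, the isoform used otherwise. The isoforms numbered 1 of the other members had 1.87 RPM or less in the 5′ UTR in ribo-seq. How far the CA1.1 leader accounts for the change was not tested. Chosen after seeing the data, 28-base positions as length gave 47.8% in ribo-seq and 64.1% in mRNA-seq for the start of CA1, 23.0% and 40.7% for CA2, and 169% and 156% for CA6. No paired analysis was possible because each assay has 1 library. CA3, with 106 footprints, and the leaders of CA2, CA3 and CA6 are limited by depth.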
